A study of Rattus norvegicus with 15 samples.

Results

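The enzymes described here reduce or oxidise reactive carbonyl compounds and aldehydes: the carbonyl reductases Cbr1 and Cbr3, the aldo-keto reductases Akr1a1, Akr1b8 and Akr7a2, the aldehyde dehydrogenases Aldh1a1, Aldh2 and Aldh3a2, and the alcohol dehydrogenase Adh1. They were chosen by name, with values of these same rats known, from the comparison of obese with lean fat, in which Cbr1 was among the genes that differed. Their fold changes between the groups, with the p-values of the fit, are therefore a description and no test of the enzymes. A probe set, a group of array probes against 1 transcript, was taken where its annotation named 1 gene alone and that gene was one of the 9, of 14217 genes so named. This gave 10 of the 20826 probe sets that name 1 gene, out of 31042 that are no controls, and 9 of the 10, 1 per gene, lay above the filter on low signals, as did 18625 probe sets in all. Adh1 is listed under its current symbol Adh1c (Entrez gene 24172) and had a second, dim probe set below the filter.

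Epididymal fat, the fat pad beside the testis, was taken from 15 male Long-Evans rats, and each rat's RNA was hybridised to 1 Affymetrix RAE230_2 array. The obese group held 7 rats with diet-induced obesity, fed a diet high in fat and sucrose since weaning, and the lean group held 8 rats fed regular chow over the same time. The animals arrived when 14 weeks old and were housed singly with free access to food, given an oral glucose test after a fast at 21 weeks, bled after another fast at 25 weeks and killed, fed, at 26 weeks. Diet and obesity went together in every rat and cannot be told apart. Values are MAS5 signals, a probe set's brightness on a linear scale, and the number of arrays limits the precision. The pad holds many cell types, and fewer cells of a type and less RNA per cell cannot be told apart.

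Aldehydes form in fat when unsaturated lipids are peroxidised, and they react with proteins and DNA. Among the routes by which cells remove them, reductases use NADPH to turn a carbonyl group into an alcohol. Aldehyde dehydrogenases use NAD or NADP to turn an aldehyde into an acid, and genes of glutathione routes are given further on. Cbr1 also reduces quinones and prostaglandin E, and several reductases are known targets of the stress-responsive factor Nrf2 or of the aryl hydrocarbon receptor.

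Obese rat 1 and lean rat 7, in different groups by their labels, gave nearly the same array. Their log2 signals correlated at r = 0.98572 over the 18625 probe sets, against 0.89813 to 0.96039 for all other pairs of arrays. Cbr1 had a signal of 18933 in obese rat 1 and 18769 in lean rat 7, Akr1b8 had 2999.7 and 3045, and Aldh2 had 18028 and 17514. The labels do not say which group is right for either array. The enzymes' comparisons are therefore given without this pair, from 6 obese and 7 lean rats, and with all 15 arrays. Group ranges, means and medians leave the pair out unless all 15 arrays are named.

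The rat genome carries Cbr1-like genes beside Cbr1, called copies here, and upstream sequences of this cluster are shown. The probe set is directed at a transcript, so these upstream bases do not show whether it also reads the copies. In the RefSeq annotation of build GRCr8, protein-coding genes follow each other on chromosome 11 in the order Cbr1, Cbr1l1, Cbr1l2, Cbr1l3 and Cbr3. The 250 bases upstream of each start are printed 5′ to 3′ from RefSeq for Cbr1 (chr11:46346155-46346404, + strand), its nearest copy Cbr1l1 (chr11:46362345-46362594, + strand) and Cbr3 (chr11:46478045-46478294, + strand). Capitals mark GCGTG, the core of the element bound by the aryl hydrocarbon receptor, on either strand (CACGC is its reverse complement).
Cbr1: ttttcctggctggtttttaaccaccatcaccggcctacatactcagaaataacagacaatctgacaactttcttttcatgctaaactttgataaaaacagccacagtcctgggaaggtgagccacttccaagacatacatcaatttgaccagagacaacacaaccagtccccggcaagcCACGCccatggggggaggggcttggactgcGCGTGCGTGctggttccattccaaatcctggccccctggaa
Cbr1l1: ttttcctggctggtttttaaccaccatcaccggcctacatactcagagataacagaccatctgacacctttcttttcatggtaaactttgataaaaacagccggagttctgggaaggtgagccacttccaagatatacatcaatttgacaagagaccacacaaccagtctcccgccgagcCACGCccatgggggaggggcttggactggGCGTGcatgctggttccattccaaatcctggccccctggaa
Cbr3: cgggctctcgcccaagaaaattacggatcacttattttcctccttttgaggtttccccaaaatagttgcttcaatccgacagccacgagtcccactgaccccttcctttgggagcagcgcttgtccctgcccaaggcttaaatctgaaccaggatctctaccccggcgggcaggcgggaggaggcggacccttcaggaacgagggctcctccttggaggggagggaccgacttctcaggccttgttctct

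The upstream sequences of Cbr1 and Cbr1l1 were 93.6% identical over their alignment. Those of Cbr1 with Cbr1l2, Cbr1l3 and Cbr3 were 46.5%, 48.7% and 46.6% identical. All pairs of these genes but the first lay between 42.6% and 48.9%. The Cbr1l2 window, not printed here, ends in the same bases with which the Cbr1l1 window begins, so these windows are offset. Percentages with Cbr1l2 thus compare shifted stretches and do not measure how alike its upstream region is. Cbr1 held 3 matches to GCGTG, of which the last pair shares 1 base in GCGTGCGTG, Cbr1l1 held 2 and Cbr3 none. Among the 8 enzymes with a promoter entry, 3 held the core (Cbr1, Akr7a2 and Aldh3a2), and 27.2% of 27457 RefSeq promoters did so in the same window. The core bound by Nrf2, TGACNNNGC on either strand, was found in 0 of the 8 and in 10.2% of all promoters. Such a match describes letters only, and no binding was measured. How far transcripts of the copies add to the Cbr1 signal was not tested.

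Cbr1 (Entrez gene 29224) was lower in obese fat once the near-identical pair was left out. Its signal in the 6 obese rats ran from 5836 to 10951 with a median of 6778. In the 7 lean rats it ran from 12310.1 to 25803 with a median of 18547. Every obese rat lay below every lean rat, and obese rat 3 stood nearest to the lean range. The means were 7281 ± 1845 (SD, n = 6) and 18769 ± 5079 (SD, n = 7), a lean mean 2.58 times the obese mean. On the scale log2(signal + 79.9), used for every fold change here, Cbr1 fell by 1.34 ± 0.19 (SE; 95% interval -1.74 to -0.95; limma adjusted p = 0.00655). When the pair was kept, obese rat 1 lay inside the lean range, the log2 fold change was -1.15 ± 0.23 (SE) and Cbr1 missed the threshold of 0.05 (limma adjusted p = 0.0948). Leaving out obese rat 1 alone brought its adjusted p to 0.00226.

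Cbr3 (304078), a close relative of Cbr1, overlapped between the groups. Its signal ran from 4956 to 9076 with a median of 5236 in obese rats and from 5072 to 9275 with a median of 6723 in lean rats. Obese rat 7 was high, at 9076, and the other 5 obese rats of this set lay at or below 6106, while the left-out obese rat 1 and lean rat 7 had 9229 and 9504. The log2 fold change was -0.22 ± 0.18 (SE; limma adjusted p = 0.556) without the pair and -0.18 ± 0.18 with all 15 arrays (limma adjusted p = 0.667).

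**Figure D1:**
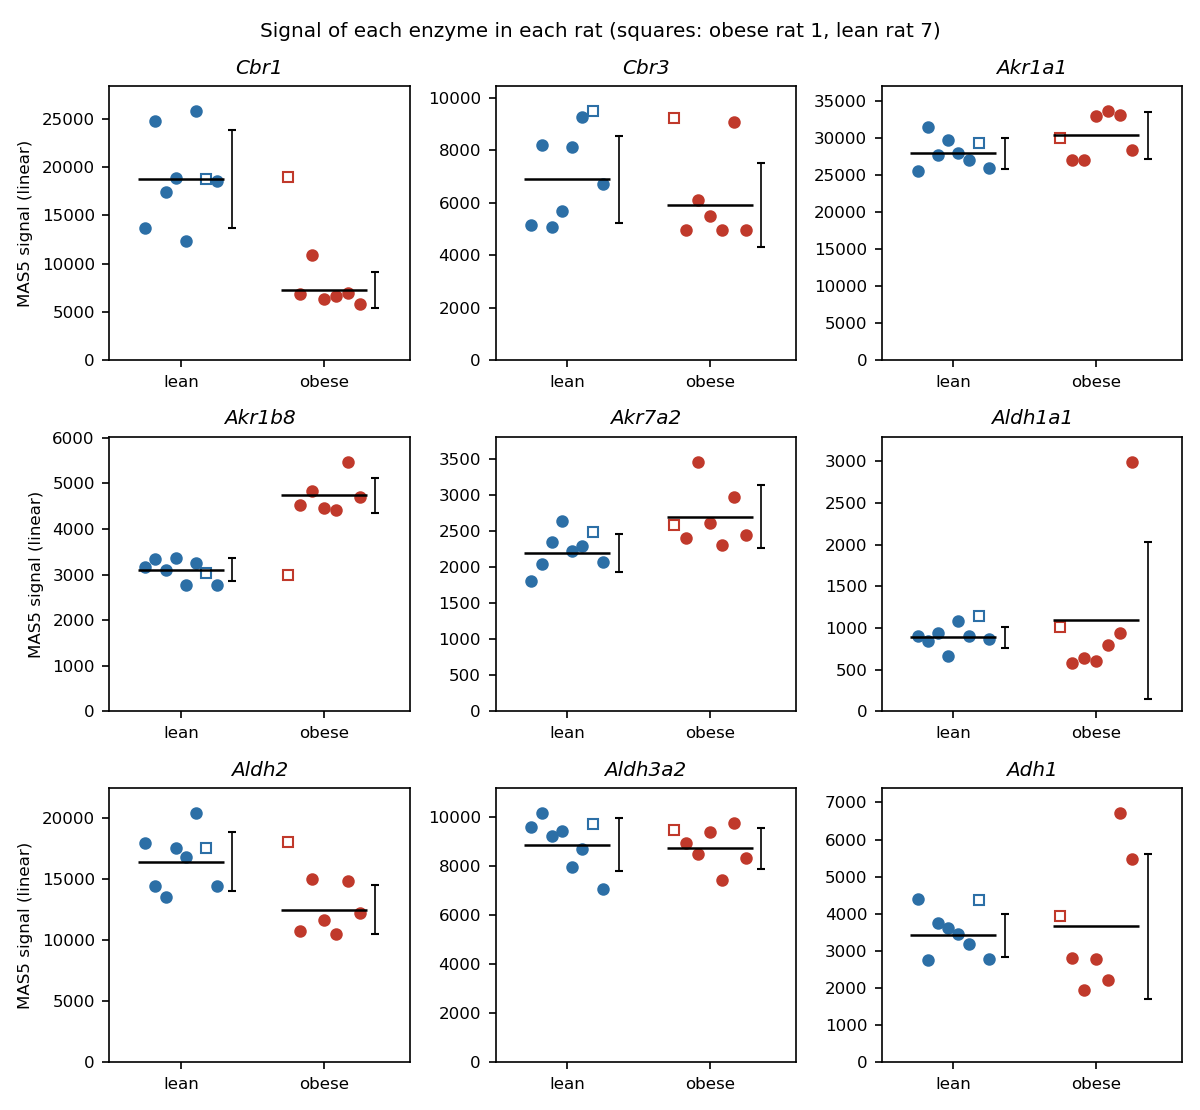
Signal of each of the 9 enzymes in every rat (1 point per rat, lean at left and obese at right, linear axis from 0). Squares mark the near-identical pair of arrays, and the line and bar give the mean and SD of the other rats. Without that pair, Cbr1 lies between 5836 and 10951 in obese rats and from 12310.1 in lean rats upwards, and Akr1b8 lies at 4425 or above in obese rats and at 3372 or below in lean rats.

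Akr1b8 (286921), an aldose reductase relative that reduces lipid-derived aldehydes, was the other enzyme whose groups did not overlap. Its signal in the 6 obese rats ran from 4425 to 5469 with a median of 4616. In the 7 lean rats it ran from 2768 to 3372 with a median of 3158. Obese rats were thus all above lean rats, with means of 4736 ± 390.5 (SD, n = 6) and 3109 ± 249.6 (SD, n = 7), a ratio of 1.52. Akr1b8 rose by 0.60 ± 0.09 on the log2 scale (SE; 95% interval 0.40 to 0.79; limma adjusted p = 0.0119). Over all 15 arrays it had 0.51 ± 0.11 (SE; limma adjusted p = 0.099) and did not pass. Leaving out obese rat 1 alone brought its adjusted p to 0.00475.

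Akr7a2 (171445), which reduces succinic semialdehyde and dicarbonyls, had signals from 2311 to 3457 with a median of 2527 in obese rats. Lean rats ran from 1809 to 2633 with a median of 2228, so the groups overlapped, with obese rat 3 the highest of all. The log2 fold change was 0.28 ± 0.12 (SE; limma adjusted p = 0.223). Akr1a1 (78959), the general aldehyde reductase, varied little, with 26999 to 33633 in obese rats and 25495 to 31499 in lean rats. Its log2 fold change was 0.12 ± 0.10 (SE; limma adjusted p = 0.552). With all 15 arrays the values were 0.25 ± 0.10 for Akr7a2 and 0.11 ± 0.08 for Akr1a1 (SE; limma adjusted p = 0.256 and 0.559).

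Among the aldehyde dehydrogenases chosen here, Aldh2 (29539), the mitochondrial enzyme that clears acetaldehyde and hydroxynonenal, had the largest difference. Its signal ran from 10462 to 15003 with a median of 11955 in obese rats and from 13540 to 20402 with a median of 16772 in lean rats. The groups overlapped through obese rats 3 and 7, and the other 4 of 6 obese rats lay below all lean rats. The log2 fold change was -0.39 ± 0.13 (SE; 95% interval -0.66 to -0.13; limma adjusted p = 0.128) without the pair and -0.33 ± 0.13 with all 15 arrays (limma adjusted p = 0.233). Aldh3a2 (65183), the fatty aldehyde dehydrogenase, had 7403 to 9758 in obese and 7042 to 10147 in lean rats, with a difference of -0.02 ± 0.11 on the log2 scale (SE; limma adjusted p = 0.937).

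Aldh1a1 (24188), which makes retinoic acid from retinal, differed more among obese rats than between the groups. Its signal was 2994 in obese rat 8 and 580.5 to 942.2 in the other 5 obese rats, with an obese median of 716.5. Lean rats ran from 662.5 to 1089 with a median of 902.1. The SD of the log2 values was 0.84 among obese and 0.20 among lean rats. The log2 fold change was 0.03 ± 0.29 (SE; 95% interval -0.58 to 0.64; limma adjusted p = 0.969). With obese rat 8 alone left out of all 15 arrays it was -0.26 (limma adjusted p = 0.419). Adh1, which oxidises ethanol and retinol, also spread most in obese rats, with an SD of 0.71 against 0.23 on the log2 scale. Obese rats 7 and 8 had 6716 and 5479, above all 7 lean rats at 2750.3 to 4390 (median 3454), and obese rats 3 and 6 had 1949.7 and 2212, below all of them. Its obese median was 2801, and its log2 fold change was -0.04 ± 0.25 (SE; limma adjusted p = 0.951). The dim second probe set of Adh1 had 123.6 to 473.6 in obese and 230.0 to 529.6 in lean rats. With all 15 arrays, Aldh1a1, Aldh3a2 and Adh1 had log2 fold changes of 0.01, -0.02 and -0.05 (limma adjusted p = 0.988, 0.934 and 0.937). Median centring turned the signs of Aldh3a2 and Adh1 and quantile normalization turned neither, and the Gapdh ratio described further on turned those of Aldh1a1 and Aldh3a2.

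**Figure D2:**
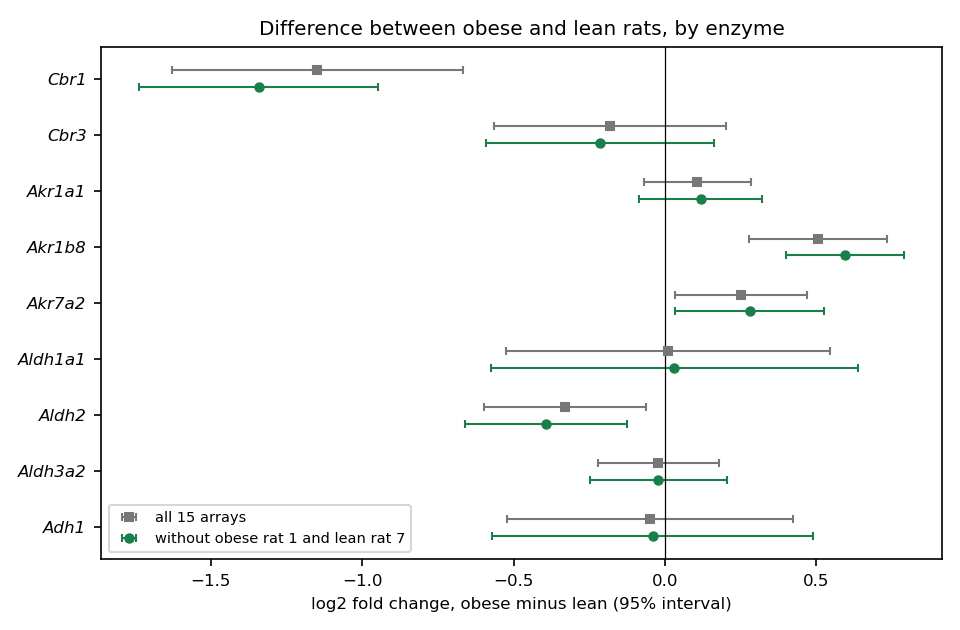
Log2 fold change of each enzyme, obese minus lean, with 95% intervals as bars, without the near-identical pair (circles) and for all 15 arrays (squares). Without the near-identical pair Cbr1 lies at -1.34 and Akr1b8 at 0.60, and the other 7 enzymes lie between -0.39 and 0.28.

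Over the 9 enzymes, 4 had positive and 5 negative log2 fold changes in both sets of arrays. Their median was -0.02, beside -0.04 over all 18625 probe sets, and 42.2% of all probe sets were positive without the pair and 42.5% with it. Without the pair limma passed 2 of the 9, where 1.01% of all probe sets passed, 0.725% higher and 0.29% lower. The groups did not overlap for 2 of the 9, and for 1.45% of all probe sets. With all 15 arrays limma passed 0 of the 9 and 0% of all, and the groups did not overlap for 0 of the 9 and for 0.193% of all. At an unadjusted p under 0.05, Cbr1, Akr1b8, Akr7a2 and Aldh2 passed in both sets, beside 17.8% of all probe sets without the pair and 15.6% with it. Since the choice of the enzymes used this contrast, nothing is read from these counts.

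Signals of the same arrays that may move with RNA quality and cell makeup were set beside these values, and neither was measured on its own. The log2 ratio of 3 prime to 5 prime Gapdh signal, higher in more degraded RNA, averaged 0.721 ± 0.275 (SD, n = 6) among obese rats against 1.05 ± 0.278 (SD, n = 7) among lean (exact two-sided permutation p = 0.0589; adjusted over 7 measures p = 0.201). Over all 15 arrays it was 0.772 against 1.05 (exact two-sided permutation p = 0.0746, adjusted p = 0.198). With that ratio as a covariate Cbr1 had -1.14 ± 0.21 (SE) and lost its call (limma adjusted p = 0.0647, within 0.00155 to 0.131 over its alternatives without the pair), while Akr1b8 had 0.63 and kept it. The part of RNA quality in the Cbr1 difference was not tested further. Macrophage markers, cells that gather in obese fat, were positive in 23 of 23 genes, of which 8 rose, and their summed signal was 245319 to 495933 in obese and 156886 to 238981 in lean rats. By rat, the mean log2 level was 12.9 against 12.2 (exact two-sided permutation p = 0.00175, adjusted p = 0.0122). The level also differed over all 15 arrays (exact two-sided permutation p = 0.00218, adjusted p = 0.0152), but 0 of the 23 genes passed and obese rat 1, at a sum of 196981, lay inside the lean range. Mesothelial markers, the lining of the pad, were negative in 11 of 12 genes, with summed signals of 23656 to 41799 in obese rats and 23033 to 53397 in lean rats, and Calb2 alone fell, a call lost under median centring, under quantile normalization and with all 15 arrays. Their mean log2 level did not pass without the pair or with it (exact two-sided permutation adjusted p = 0.201 and 0.198). Their part in the enzymes' values was not tested. All 17 matched adipocyte markers lay above the filter, with sums of 662599 to 1248248 in obese and 664280 to 962833 in lean rats, while 4 of 5 epididymal epithelium markers lay below it.

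Differences among rats of 1 group were not used in choosing the enzymes. Each rat's deviation of Cbr1 from its group mean was set against those of the 8 other enzymes and of 6 marker lists, over 13 rats and 14 relations. No relation passed after adjustment (permutation p for Pearson's r, lowest adjusted p = 0.338; 0 of 14 at an unadjusted p under 0.05 by r and 1 by Spearman's rho). Among the enzymes r ran from -0.464 for Adh1 through 0.010 for Akr1a1 to 0.493 for Akr7a2, and Akr1b8 had 0.437. The highest was that of mesothelial markers, with r = 0.554 (permutation p = 0.0728, adjusted p = 0.338) and rho = 0.604 (permutation p = 0.0438, adjusted p = 0.327). Without the 2 rats farthest from the median of Cbr1 that r was 0.616, and Aldh2 went from 0.270 to -0.356. Again no relation passed over all 15 arrays after adjustment (lowest adjusted p = 0.156), and 4 of 14 had an unadjusted permutation p under 0.05 by r. These were macrophage markers at -0.629, Aldh2 at 0.569, Cbr3 at 0.545 and mesothelial markers at 0.490. In that set obese rat 1, whose array nearly matched that of a lean rat, adds the contrast between the groups to the obese deviations. The values with all 15 arrays are thus not free of the contrast that chose the enzymes, and nothing is read from them. Adding the pair turned r of Akr1b8 to -0.461 and moved those of Adh1 to -0.198 and Akr7a2 to 0.280.

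**Figure D3:**
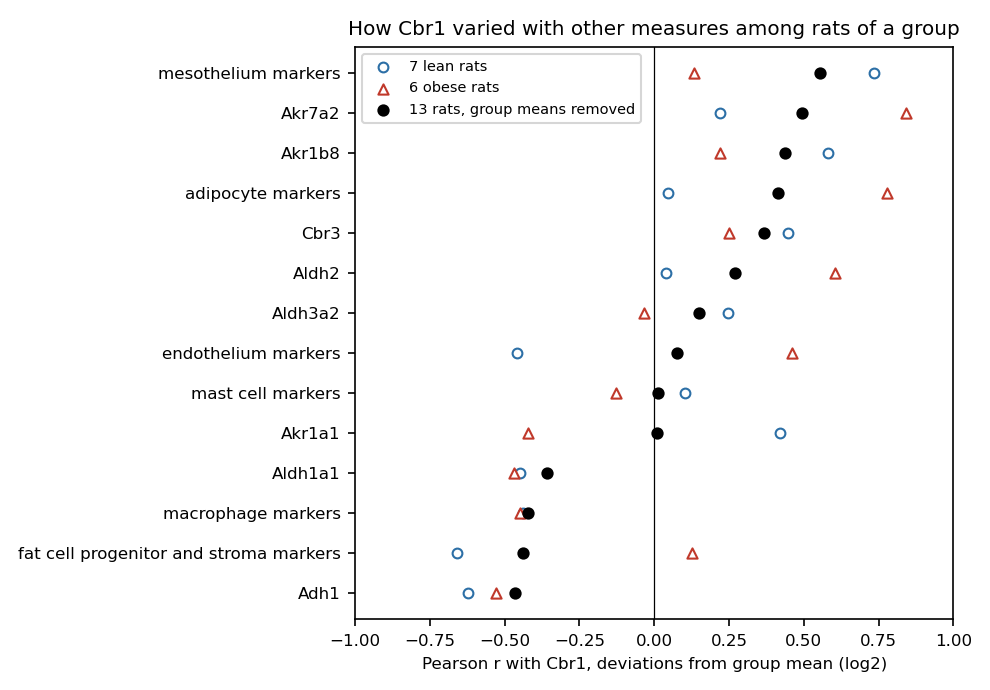
Pearson r of Cbr1 with each other enzyme and marker list, from deviations of log2 values from the group mean (filled: 13 rats; open circles: 7 lean; open triangles: 6 obese). The pooled values run from -0.464 for Adh1 to 0.554 for mesothelial markers.

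Over 10513 other genes, those whose deviations ran most like Cbr1 in the 13 rats were Brd9, a chromatin remodelling subunit (r = 0.919), Id1, an inhibitor of DNA-binding factors (0.878), Ccdc17 (0.866), Plcd3, a phospholipase (0.863), and Tpm1, a tropomyosin (0.851). The most opposite were Ccnb2, a mitotic cyclin (-0.930), Or8g23 (-0.896) and Tdp1, a DNA repair enzyme (-0.851). These are the extremes of a ranking over 13 rats, so no p is given. With 15 arrays r was 0.472 to 0.656 for the first 5 genes, -0.839 for Ccnb2, -0.445 for Or8g23 and -0.504 for Tdp1. None of the 8 passed between obese and lean rats.

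Related genes were read from lists of the same pathways, 93 genes beside the 9, of which 80 lay above the filter. Without the pair 2 of the 80 rose and 0 fell, where 0.725% of all probe sets rose and 0.29% fell. With all 15 arrays 0 of the 80 and 0% of all probe sets passed. Vat1, a quinone oxidoreductase relative, rose by 0.71 ± 0.16, from 3107 ± 466.8 (SD, n = 7) in lean to 5240 ± 1365 (SD, n = 6) in obese rats (limma adjusted p = 0.0465). Tkt, the transketolase of the pentose phosphate route, rose by 0.50 ± 0.10, from 10302 ± 832.4 to 14667 ± 1758 (SE and SD as before; limma adjusted p = 0.0333). Quantile normalization ended both calls, and with all 15 arrays Vat1 had 0.62 and Tkt 0.43 (limma adjusted p = 0.105 and 0.103). The fold changes of the other related genes are those without the pair.

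Other carbonyl and dicarbonyl reductases had 13 of 23 positive and a median of 0.03, where Hsd17b10 had 0.37 and the retinal reductase Dhrs3 -0.25 (limma adjusted p = 0.216 and 0.195). Other aldo-keto reductases had 3 of 11 positive and a median of -0.22. Among them Akr1c14, a hydroxysteroid dehydrogenase, had 2381 to 3342 in obese and 1128.5 to 2326 in lean rats. The groups did not overlap, as for Tkt and Pgd of the Nrf2 list further on and for 1.45% of all probe sets. With all 15 arrays the groups overlapped for each of these genes (obese rats from 1837.8 for Akr1c14). The log2 fold change of Akr1c14 reached 0.64 ± 0.17 (SE; limma adjusted p = 0.0899). Aldose reductase Akr1b1 had 0.45 ± 0.12 and the steroid reductase Akr1d1 -1.19 ± 0.38 (SE; limma adjusted p = 0.092 and 0.125). Other aldehyde dehydrogenases had 8 of 12 positive and a median of 0.02, with Aldh5a1, the succinic semialdehyde dehydrogenase, at -0.58, Aldh7a1 at 0.29 and Aldh9a1 at 0.36 (limma adjusted p = 0.0646, 0.149 and 0.265).

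Of the other alcohol dehydrogenases, Adh5, which clears formaldehyde bound to glutathione, had 0.13 and Adhfe1 -0.31 (limma adjusted p = 0.645 and 0.286). The list of glutathione routes for aldehydes and methylglyoxal, in which Park7 was placed, had 10 of 12 positive and a median of 0.14. Gstp1 had 0.25, Park7 0.24 and Gsta4, the transferase for hydroxynonenal, -0.23 (limma adjusted p = 0.333, 0.246 and 0.349). Nrf2 regulators and common targets had 14 of 21 positive and a median of 0.08. The other 7 were negative, the lowest being Slc7a11 at -0.46 (limma adjusted p = 0.13). Heme oxygenase Hmox1 had 0.86 ± 0.23 and Taldo1, the transaldolase of the same route as Tkt, 0.55 ± 0.13 (SE; limma adjusted p = 0.0835 and 0.0546). Median centring moved the median of all probe sets from -0.04 to 0.07 and the positive share of all from 42.2% to 63%, and under it Akr1b1, Aldh7a1, Hmox1, Abcc4, Pgd and Taldo1 passed too. Counts and medians of the lists moved with it: the other carbonyl and dicarbonyl reductases had 19 of 23 positive and a median of 0.14, the aldo-keto reductases 5 of 11 and -0.10, the aldehyde dehydrogenases 10 of 12 and 0.14, the glutathione routes 10 of 12 and 0.25 and the Nrf2 list 15 of 21 and 0.19. The median of the other alcohol dehydrogenases turned from -0.09 to 0.03. Quantile normalization gave 17 of 23 and 0.07, 4 of 11 and -0.22, 9 of 12 and 0.10, 9 of 12 and 0.07, and 14 of 21 and 0.07 for the first 5 of these lists in the same order.

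**Figure D4:**
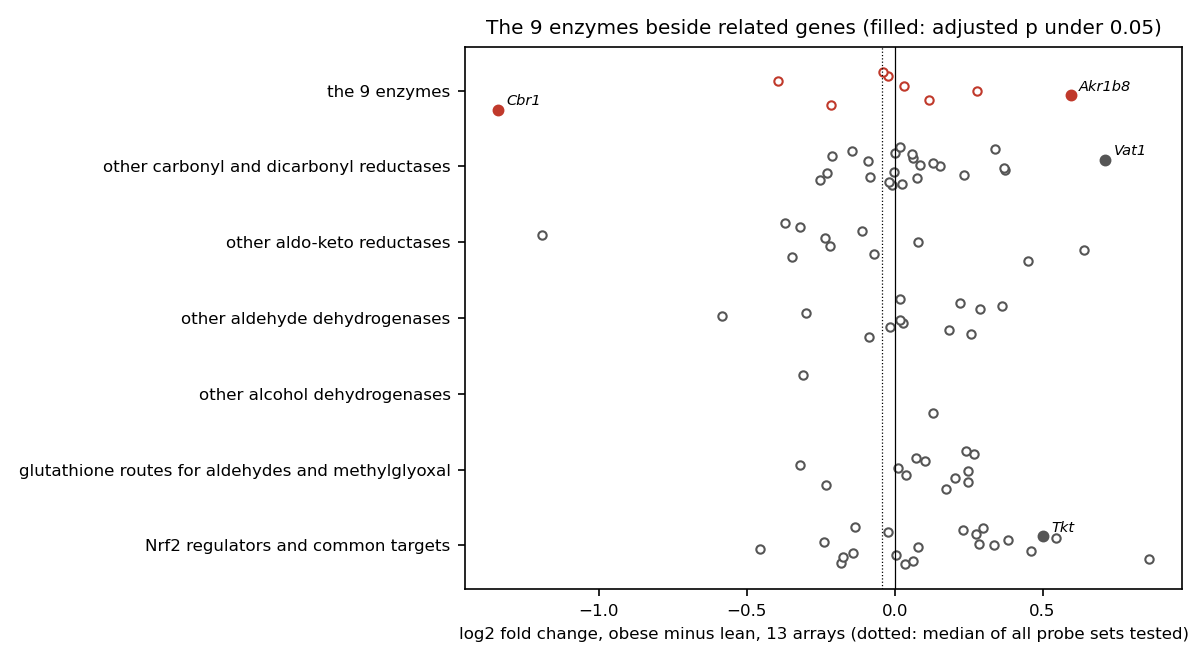
Log2 fold change without the near-identical pair for the 9 enzymes (top) and 6 lists of related genes (1 point per gene; filled: adjusted p under 0.05; dotted line: median of all probe sets, -0.04). Cbr1, Akr1b8, Vat1 and Tkt are the filled points.

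**Figure D5:**
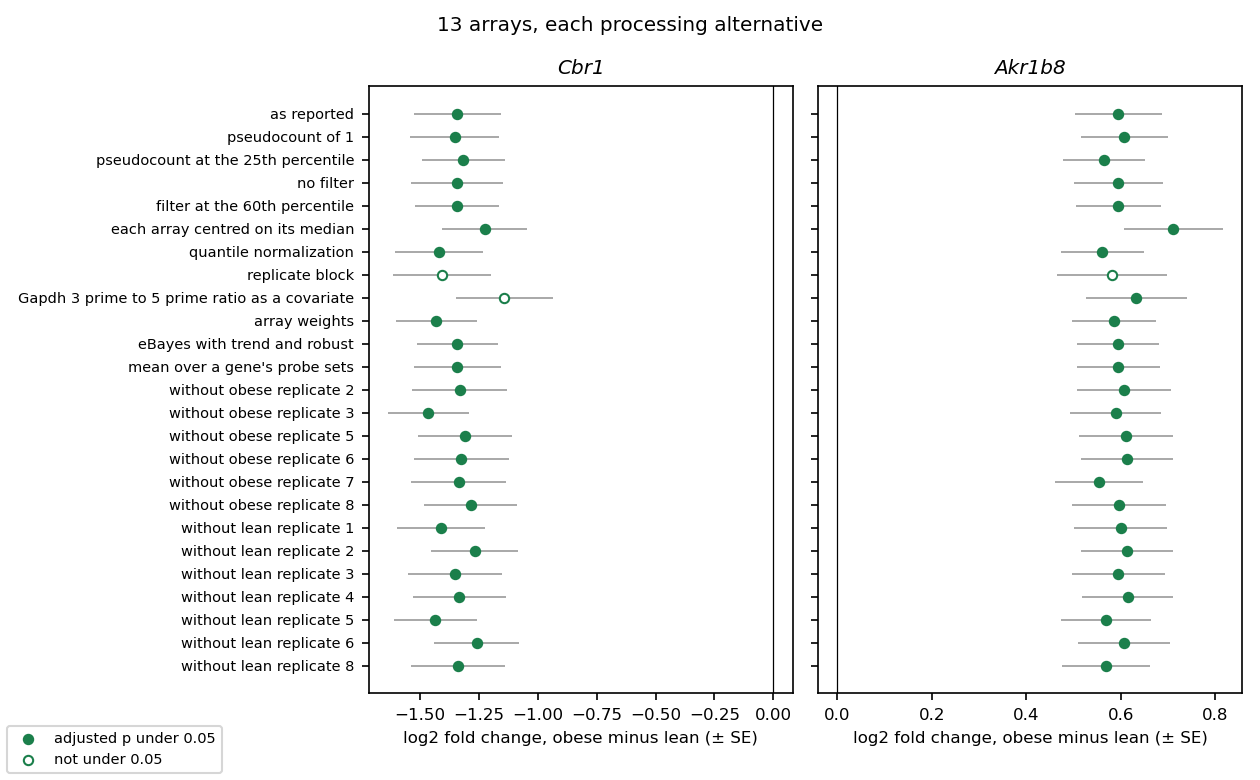
Log2 fold change ± SE of Cbr1 and Akr1b8 without the near-identical pair, as reported and under each of 24 alternatives (open points: adjusted p not under 0.05, with the replicate block for both genes and with the Gapdh ratio for Cbr1). Cbr1 stays between -1.47 and -1.14 and is called in 22 of the 24, and Akr1b8 stays between 0.55 and 0.71 and is called in 23.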

How the data were processed

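The deposited intensity values were MAS5 signals on a linear scale, per the submitters' processing notes, of a version not given in the sources used here. Their 2% trimmed mean was 1500.34 to 1500.42 on every array, so they were used as deposited. The labels and the design text differ on RNA input (6 and 5 micrograms) and on the extraction reagent. Subtraction of mismatch probes by MAS5 adds noise at low signals.

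Of 31099 probe sets, 57 were controls. Signals were put on log2(signal + 79.9), the 10th percentile of all signals, which understates changes of dim genes, and probe sets above the 40th percentile of mean log2 were kept. Obese and lean rats were compared over the whole table by limma 3.58.1 in R 4.3.3, with p-values adjusted by Benjamini-Hochberg and called under 0.05. The brightest probe set stood for a gene. Exact two-sided permutation tests compared array measures, and relations were tested with 100000 permutations within groups. The steps were tested on simulated data. With 13 arrays the fit called 26% of planted log2 changes of 0.5 and 90% of changes of 1. With 15 arrays it called 46% and 84%. Of its calls, 4.88% were false with 13 arrays and 8.33% with 15. Planted noise was independent between probe sets.

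The enzymes, gene lists and the set without the near-identical pair were chosen with earlier results of these data known. Every enzyme was named, with the 3 genes of smallest p per related list and the 5 genes most like and 3 most unlike Cbr1. Marker lists were adipocyte, macrophage, mesothelium, progenitor and stroma, endothelium, mast cell, epididymal epithelium and red blood cell. Of 9 enzymes, 8 matched a RefSeq promoter, and Aldh2 did not. Alternatives were the pseudocount, the filter, the scaling, the rat number as a block, the Gapdh ratio, array weights, trend and robust, probe sets averaged per gene and each rat left out. List medians under other scalings and the lowest value of the Nrf2 list were added after seeing the data. The labels do not say whether rats shared litters or processing days.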

Additional observations from a re-analysis of the deposited data

Results flagged for a closer look

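A rat stood apart from the rest of its group in 8 of 40 groups of values examined, by a gap to its nearest neighbour that was large against the group's range. Chance gives about 1 in 20 such groups, and the sets with 13 and 15 arrays share most rats. Cbr1 was 10951.4 in obese rat 3 without the near-identical pair, against 5835.7 to 6974.9 in the other obese rats. Cbr3 was 9076.1 in obese rat 7 in that set, against 4955.6 to 6105.7. Akr1b8 was 2999.7 in obese rat 1 with all 15 arrays, against 4425.3 to 5469.4, and that rat's array is one of the near-identical pair. Aldh1a1 was 2994.4 in obese rat 8 in both sets, against 580.5 to 1011 in the others with all 15 arrays. That rat also had the lowest Gapdh log2 ratio of all, at 0.353, and the part of this in its Aldh1a1 value was not tested. The dim second probe set of Adh1 was 123.6 in obese rat 6 in both sets, against 319.5 to 473.6, and 230.0 in lean rat 3 without the pair, against 384 to 529.6.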

How the results depend on the processing

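Without the near-identical pair, 2 enzymes passed, and 0 did with the rat number as a replicate block (Cbr1 -1.41, limma adjusted p = 0.131; Akr1b8 0.58, adjusted p = 0.179) and 1 after adding the Gapdh ratio to the fit. The numbers name different rats, and the labels do not say whether they pair the samples. Over both sets of arrays, same-numbered rats' deviations correlated between -0.117 and 0.244, and whether this departs from unpaired rats was not tested. Leaving out 1 more rat gave 2 each time. With all 15 arrays 0 passed, against 2 with the filter at the 60th percentile, which tests fewer probe sets, and 0 to 2 when 1 rat was left out, 2 being without obese rat 1. Signs of Aldh1a1, Aldh3a2 and Adh1 turned in 4, 4 and 7 alternatives without the pair and in 7, 4 and 4 with it, and those of the other 6 enzymes in 0. Over all probe sets, 189 passed without the pair, against 123 with a pseudocount of 1, 46 with no filter, 334 with the stricter filter, 389 with median centring, 124 with quantile normalization, 3 with the block, 14 with the Gapdh ratio, 309 with trend and robust and 51 to 262 with 1 more rat left out. With all 15 arrays the count was 0, against 3 with no filter, 49 with the stricter filter, 8 with trend and robust and 0 to 245 with 1 rat left out. Why these counts differ was not tested. Relations of Cbr1 passed in 0 of 14 under each setting tried.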

Other observations

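Marker lists of other cell types gave these medians of log2 fold changes without the near-identical pair. Mast cell markers had -0.19, with 0 of 6 genes positive and 0 called, and endothelial markers -0.05, with 5 of 11 positive and 0 called. Fat cell progenitor and stroma markers had -0.02, with 6 of 13 positive, of which Col1a1 rose and Cd55 fell. The adipocyte list had -0.05, with 8 of 17 positive, of which Cidea rose, and both matched red blood cell genes were positive, with a median of 0.09 and 0 called. Median centring gave endothelial markers 9 of 11 positive, a median of 0.07 and Eng called, the adipocyte list 13 of 17, 0.06 and Lep, Cidea and Gpd1 called, progenitor and stroma markers 9 of 13 and 0.10, and mast cell markers 2 of 6 and -0.08. No gene of these lists was called with all 15 arrays (limma, lowest adjusted p = 0.0948).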
